A study of Mus musculus with 10 samples.

Results

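The genes described here are 38 regulators and markers of the cell cycle, chosen by name and grouped by role: 14 genes of DNA replication, 9 genes that control G1 and entry into S phase, and 15 genes of G2 and mitosis. Of these, 37 were measured, among 18193 genes in all, and Ccnb1 had no probe set with its symbol alone. Where several probe sets measured a gene, the brightest on average was used. RNA came from 10 samples of male mice, 24 h after surgery, each from the ischemic hemisphere or, after sham surgery, the hemisphere of the same side. The 4 groups were wild-type (WT) mice after sham surgery (n = 2) or after middle cerebral artery occlusion (MCAO, a stroke made by blocking the main artery of the forebrain, n = 3), and Hsp72Tg mice after sham surgery (n = 2) or MCAO (n = 3). Hsp72Tg mice overexpress the inducible heat shock protein Hsp72. The sources used here do not give the transgene's promoter, the strain or the age. Nor do the labels say whether each array is a separate mouse, so p-values measure the spread between these samples, which may be technical in part. The values are log2 RMA expression values, where a difference of 1 is a 2-fold change.

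A dividing cell passes from G1 through DNA synthesis to mitosis. D-type cyclins with Cdk4 or Cdk6 inactivate the retinoblastoma protein in G1, which frees E2F factors to switch on the replication genes. The MCM proteins then form the ring-shaped helicase that opens DNA at origins. Mitotic genes come on later, through the MuvB and FoxM1 complexes. In the adult brain nearly all neurons have left the cycle for good. Division goes on in neural progenitors and oligodendrocyte precursors, and after stroke microglia, reactive astrocytes and vessel cells can enter the cycle over the following days.

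The promoters of these genes are shown because the replication and mitosis genes, whose values are set side by side further on, differ in the motifs they hold. The RefSeq promoter table (GRCm38.p6) held 35 promoters of 31 of the 38 genes, each with 250 bases before and 50 after a start site, among 32851 promoters in all. An E2F site (TTCCCGC or TTCGCGC, and also TTGCCGC or TTGGCGC, on either strand) was in 9 of 14 replication promoters (64.3%), 1 of 7 G1 promoters (14.3%), 3 of 14 mitosis promoters (21.4%) and 9.57% of all promoters. The CHR element (TTTGAA, either strand), a site bound by the MuvB complex, was in 3 replication promoters (21.4%), 0 of the 7 G1 promoters, 11 mitosis promoters (78.6%) and 17.9% of all. The CCAAT box (CCAAT, either strand) was in 10 replication promoters (71.4%), 2 G1 promoters (28.6%), 13 mitosis promoters (92.9%) and 37.4% of all. A match describes letters and not binding, some matches overlap on opposite strands, and a short motif also occurs in promoters unrelated to the cycle. The 7 G1 windows covered 6 genes, without Ccnd1, Ccnd2 and Ccne2, so the G1 shares hold for these windows alone. Start sites outside the promoter table were not scanned. A window without a match, such as that of E2f1, therefore does not show that the gene lacks the motif. The 4 sequences below are the 250 bases before the start site, with every match in capitals. Mcm6 (chr1:128359706-128359955, minus strand) has 4 E2F matches, which form 2 pairs that overlap on opposite strands, and 2 CCAAT boxes. Mcm3 (chr1:20820313-20820562, minus strand) has 3 CCAAT boxes here, and its 3 E2F matches lie in the 50 bases after the start site, which are not printed. Cdc20 (chr4:118437344-118437593, minus strand), a mitosis gene, has a CHR element between 2 CCAAT boxes. Cdk6 (chr5:3343643-3343892, plus strand) has none of these motifs in this window.
Mcm6: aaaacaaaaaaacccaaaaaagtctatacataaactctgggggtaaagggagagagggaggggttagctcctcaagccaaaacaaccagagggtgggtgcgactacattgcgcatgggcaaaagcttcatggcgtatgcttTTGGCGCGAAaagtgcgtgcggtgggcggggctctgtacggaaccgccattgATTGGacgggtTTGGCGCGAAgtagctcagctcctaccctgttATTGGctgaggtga
Mcm3: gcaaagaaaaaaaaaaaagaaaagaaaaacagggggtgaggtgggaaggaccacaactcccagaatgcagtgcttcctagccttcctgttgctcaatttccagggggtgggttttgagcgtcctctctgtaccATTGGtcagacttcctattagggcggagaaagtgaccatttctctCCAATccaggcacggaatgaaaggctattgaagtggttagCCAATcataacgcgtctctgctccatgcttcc
Cdc20: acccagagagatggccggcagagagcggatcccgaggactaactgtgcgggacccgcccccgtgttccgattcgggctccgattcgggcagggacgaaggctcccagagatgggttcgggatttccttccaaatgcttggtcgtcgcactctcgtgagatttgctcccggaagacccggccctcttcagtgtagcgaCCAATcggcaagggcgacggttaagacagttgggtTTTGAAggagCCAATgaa
Cdk6: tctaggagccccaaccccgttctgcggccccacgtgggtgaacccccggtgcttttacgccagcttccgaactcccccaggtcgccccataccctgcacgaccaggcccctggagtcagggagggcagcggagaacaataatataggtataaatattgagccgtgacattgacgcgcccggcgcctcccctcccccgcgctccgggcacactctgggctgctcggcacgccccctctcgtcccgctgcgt

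The arrays as a whole set the limits for every value below. The 4 sham arrays lay between -23.7 and -20.7 on the first principal component (50.3% of the variance) and 5 MCAO arrays between 11.7 and 32.3, while Hsp72Tg MCAO 1 lay at -12.9. WT sham 1 had a mean of 9.07 over 5 cerebellar granule neuron markers against at most 7.44 in the other 9 arrays. For the members, calls that change without either array are given with that value. For markers and other genes outside the members, calls are given with all 10 arrays only. The tissue was brain by its markers, with 5 neuronal markers at a mean of 12.45 to 12.55 in the sham arrays and 12.12 to 12.49 after MCAO. Of 5 activated macrophage and microglia markers 4 were measured, and their mean was 6.53 to 6.65 in the sham arrays and 7.51 to 9.70 after MCAO, with 3 of the 4 passing. A separate list of 5 microglia markers, 4 of them measured, had lower rather than higher means after MCAO. These were 7.79 to 8.30 in the sham arrays and 7.09 to 8.19 after MCAO, overlapping, and 0 of the markers passed. The overlap came from Hsp72Tg MCAO 1 at 8.19, with the other MCAO arrays at 7.09 to 7.76. Over both genotypes the log2 change was -1.67 for P2ry12 (limma adjusted p = 0.0586), -0.35 for Siglech, -0.27 for Tmem119 and 0.09 for Cx3cr1. Of 5 endothelial markers 2 passed, with means of 7.26 to 7.64 and 7.74 to 8.41. Over both genotypes Tek had a negative log2 change (-0.25) and the others positive ones. Of 5 astrocyte markers 1 passed (means of 10.71 to 10.88 and 11.04 to 11.22). That marker was Gfap, with a log2 change of 1.60 over both genotypes. The others had changes of 0.27 (Aqp4), 0.21 (Aldh1l1), -0.05 (Slc1a3) and -0.13 (Gja1), so the list did not rise as a whole. Markers of cell types that divide in the adult brain did not pass: the means over 5 neuroblast and progenitor markers were 8.32 to 8.66 and 8.23 to 9.30, and over 4 measured markers of oligodendrocyte precursors 8.78 to 9.16 and 8.37 to 9.07. These means hide opposite signs. Over both genotypes the log2 change was 0.56 for Nes (limma adjusted p = 0.0671), 0.40 for Sox11, 0.001 for Dlx2, -0.15 for Dlx1 and -0.61 for Dcx. Precursor markers ran from -0.74 (Gpr17) to 0.35 (Sox10). In hemisphere RNA, more cells of a type and more RNA per cell cannot be told apart.

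The first comparison was of 6 MCAO arrays with 4 sham arrays over both genotypes, and asks which genes change with stroke. Mcm3, a subunit of the MCM helicase, rose by 0.61 on the log2 scale (1.53-fold, SE 0.10, limma adjusted p = 0.0283). It was the 1 of 37 members that passed (2.70%). Of all genes, 1.46% passed in either direction and 1.06% passed as higher, so 1 gene is no result about the group. At an unadjusted p under 0.05 there were 9 of 37 members (24.3%) against 19.1% of all genes. Of these 7 were higher (18.9% against 8.30% of all genes) and 2 lower (5.41% against 10.8%). By class, the 9 were 2 of 14 replication genes, 5 of 9 G1 genes and 2 of 14 mitosis genes. The median change was 0.13 for replication, 0.13 for G1 and 0.02 for mitosis genes, against -0.03 over all genes.

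**Figure D1:**
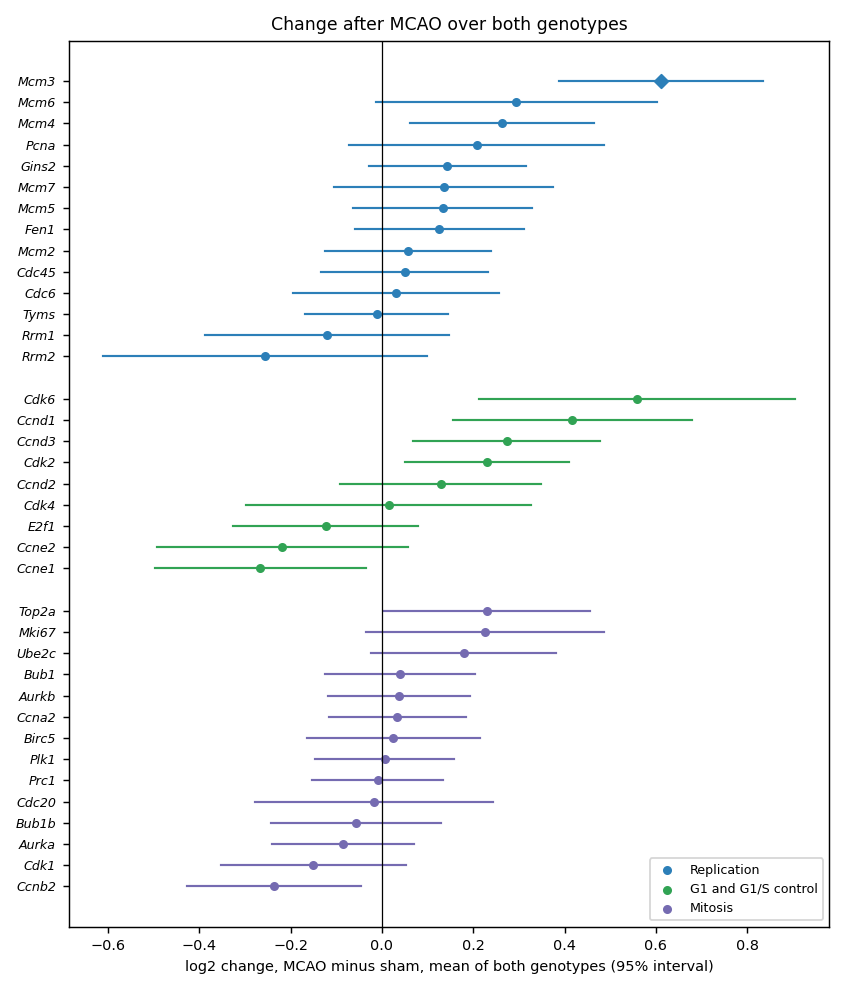
Log2 change after MCAO (mean of the changes in both genotypes, x axis) for each of the 37 measured genes (rows), with 95% confidence intervals as lines and colours for the 3 classes. The diamond marks Mcm3, the gene that passed at 0.61, while Cdk6 at 0.56 and Ccnd1 at 0.42 lead the G1 genes and the 14 mitosis genes lie between -0.24 and 0.23.

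The MCM helicase is a ring of 6 subunits, Mcm2 to Mcm7, and its genes did not all show the same size of change. Mcm3 read 5.59 and 5.65 in WT sham, 5.74 and 5.56 in Hsp72Tg sham, 6.31, 6.46 and 6.13 in WT MCAO, and 6.37, 5.96 and 6.23 in Hsp72Tg MCAO. Every MCAO array was thus above every sham array. The MCAO change was 0.68 in WT (SE 0.14, adjusted p = 0.145) and 0.54 in Hsp72Tg (SE 0.14, adjusted p = 0.321). Without Hsp72Tg MCAO 1 the change in WT was again 0.68 and passed in limma (SE 0.13, adjusted p = 0.0242), among 463 genes in all (2.54%). Hsp72Tg MCAO 1, the array nearest to the sham arrays in its overall profile and lowest of the MCAO arrays in macrophage markers (7.51), had the second highest Mcm3 value. Across the other 5 MCAO arrays these markers read 8.96 to 9.70. The part of macrophage or vessel cells in the Mcm3 change was not tested.

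The Mcm3 call depended on the arrays used. Over fits that left out 1 array the change was 0.57 to 0.67, and Mcm3 passed in 3 of 10 of them, those without an Hsp72Tg MCAO array. With one WT sham array left out, its adjusted p was 0.135 (array 1) or 0.108 (array 2), and for the Hsp72Tg sham arrays it was 0.107 (array 1) or 0.0565 (array 2). Leaving out a WT MCAO array gave 0.0804 (array 1), 0.0738 (array 2) or 0.0706 (array 3). It was 0.00524 without Hsp72Tg MCAO 1, where 4 members passed (10.8%, Mcm3, Mcm4, Ccnd1 and Cdk6) among 2251 genes in all (12.4%). The 5 probe sets of Mcm3 had changes of 0.01 to 0.61, and the one at 0.01 was dim, with a mean of 4.04 against an array lower quartile of 5.14 to 5.21. The other 3 had changes of 0.21, 0.43 and 0.45, and the mean over all 5 rose by 0.34, so the size of the rise depends on the probe set.

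Mcm4 was the other MCM gene whose 6 MCAO arrays all lay above the 4 sham arrays. It read 7.81 and 7.84 in WT sham, 7.83 and 7.88 in Hsp72Tg sham, 8.18, 8.02 and 7.93 in WT MCAO, and 7.94, 8.34 and 8.20 in Hsp72Tg MCAO. The gap was narrow, and the change of 0.26 (SE 0.09, adjusted p = 0.156) did not pass, though it did without Hsp72Tg MCAO 1 (0.32, adjusted p = 0.0278).

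Mcm6, also a subunit of the ring, is given by genotype. It read 6.94 and 7.42 in WT sham and 7.49, 7.96 and 7.91 in WT MCAO, a change of 0.61 (SE 0.19, adjusted p = 0.300). In Hsp72Tg it read 7.28 and 7.34 after sham surgery and 7.38, 7.02 and 7.48 after MCAO, a change of -0.02 (SE 0.19, adjusted p = 0.985). After MCAO all 3 Hsp72Tg arrays were below all 3 WT arrays, by 0.49 on average (SE 0.17, adjusted p = 1), with a closest gap between 7.48 and 7.49. The difference of the 2 MCAO changes was -0.62 (interval -1.24 to -0.01, unadjusted p = 0.0481, adjusted p = 1) and did not pass. That difference was -0.38 without WT sham 1 and -0.86 without WT sham 2, so it rests in part on which of the 2 WT sham arrays is used.

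The remaining licensing and helicase genes had smaller changes over both genotypes, and none passed. The log2 change was 0.13 for Mcm7 (SE 0.11), 0.13 for Mcm5 (SE 0.09) and 0.06 for Mcm2 (SE 0.08). Leaving out 1 array gave 0.06 (without WT MCAO 2) to 0.21 (without Hsp72Tg sham 1) for Mcm7. The same gave 0.06 (without WT sham 1) to 0.20 (without WT sham 2) for Mcm5 and 0.02 (without Hsp72Tg MCAO 3) to 0.09 (without WT MCAO 1) for Mcm2. A dimmer probe set of Mcm2 had a change of 0.38 (SE 0.12, unadjusted p = 0.0123), so the genes of the ring cannot be ranked by one probe set each. Cdc6, which loads the MCM ring on origins, had a change of 0.03 (SE 0.10), and all 10 arrays read it below their lower quartile, so its level is uncertain. Cdc45 and Gins2, which turn the loaded ring into an active helicase, had changes of 0.05 (SE 0.08, and 0.10 without WT sham 1) and 0.14 (SE 0.08).

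Genes of the replication fork and of nucleotide supply did not pass. Pcna, the sliding clamp that holds polymerases on DNA, read 10.99 and 10.94 in WT sham, 11.34 and 10.71 in Hsp72Tg sham, 11.19, 11.34 and 11.23 in WT MCAO, and 11.04, 11.04 and 11.38 in Hsp72Tg MCAO. The 2 Hsp72Tg sham arrays thus bracketed nearly all other arrays. Its change of 0.21 (SE 0.12, adjusted p = 0.400) was 0.05 without Hsp72Tg sham 2 and 0.36 without Hsp72Tg sham 1. Fen1, the nuclease that trims Okazaki fragments, had a change of 0.13 (SE 0.08). Rrm1 and Rrm2, the subunits of ribonucleotide reductase, had changes of -0.12 (SE 0.12) and -0.26 (SE 0.16), and the thymidylate synthase Tyms one of -0.01 (SE 0.07). Other probe sets had changes of -0.02 and 0.03 for Rrm1 and of 0.003 and 0.02 for Rrm2, so both negative values rest on the probe set used. Rrm2 read 5.85 in Hsp72Tg sham 1 against 4.84 to 5.49 in the other 9 arrays, and its change was -0.08 without that array and -0.43 without Hsp72Tg sham 2. Tyms was below the lower quartile in all 10 arrays.

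**Figure D2:**
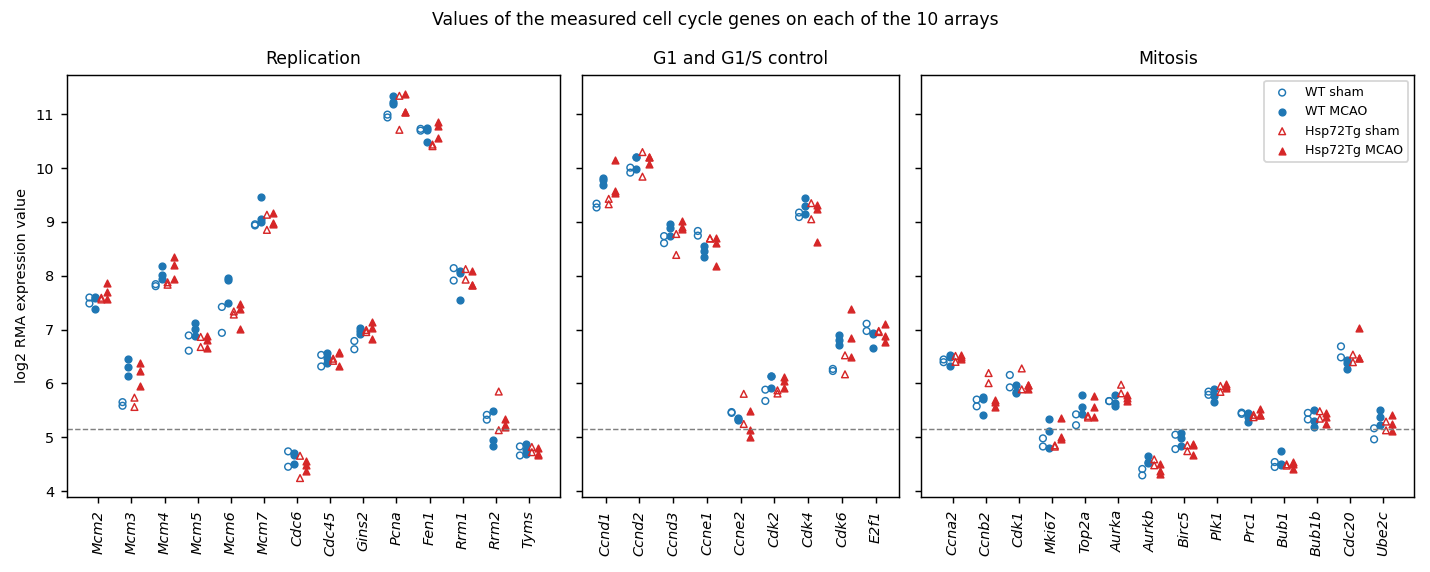
Log2 RMA value (y axis) of each of the 37 genes on each array, in panels for replication, G1 and mitosis genes, with open symbols for sham, filled for MCAO, circles for WT and triangles for Hsp72Tg. The dashed line is the lower quartile of all values, 5.16. Brightness differs between probe sets for technical reasons, so heights compare arrays within a gene and not genes with each other. The filled symbols of Mcm3 and Ccnd1 sit above the open ones, while those of the mitosis genes are mixed.

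Genes of G1 differed among themselves. Cdk6, a kinase partner of the D-type cyclins, read 6.23 and 6.27 in WT sham, 6.17 and 6.52 in Hsp72Tg sham, 6.80, 6.91 and 6.72 in WT MCAO, and 6.48, 7.38 and 6.85 in Hsp72Tg MCAO. Of the MCAO arrays, Hsp72Tg MCAO 1 alone fell within the sham range. The change was 0.56 (1.47-fold, SE 0.15, adjusted p = 0.0996) and nearly equal in WT (0.56, SE 0.22) and Hsp72Tg (0.56, SE 0.22), with an interval of -0.69 to 0.69 for their difference. Without Hsp72Tg MCAO 1 it was 0.66 and passed (adjusted p = 0.00736), and without Hsp72Tg MCAO 2 it was 0.44. Its other 2 probe sets had changes of 0.89 and -0.01. Cdk4, the sister kinase, had a change of 0.01 (SE 0.14, adjusted p = 0.967). Its lowest array was Hsp72Tg MCAO 2 at 8.62 against 9.05 to 9.44 elsewhere, and its change was 0.13 without that array and -0.03 without Hsp72Tg MCAO 1.

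Ccnd1, the cyclin D that growth factors induce, was higher in every MCAO array than in every sham array. It read 9.27 and 9.34 in WT sham, 9.43 and 9.33 in Hsp72Tg sham, 9.68, 9.77 and 9.82 in WT MCAO, and 9.54, 9.58 and 10.15 in Hsp72Tg MCAO. The change was 0.42 (SE 0.12, adjusted p = 0.101) and did not pass, but it passed without Hsp72Tg MCAO 1 (0.47, adjusted p = 0.0249). All 3 probe sets of Ccnd1 had positive changes, 0.42, 0.56 and 0.62. Ccnd3 had a change of 0.27 (SE 0.09, adjusted p = 0.148) and Ccnd2 one of 0.13 (SE 0.10, adjusted p = 0.515). Without Hsp72Tg sham 1 these 2 changes were 0.18 and 0.01. On the probe sets used, all 3 D-type cyclins thus had positive values with none past the threshold. Other probe sets of Ccnd3 had changes of 0.15 and -0.08, so its sign differed between probe sets.

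Changes of the cyclin E genes and of their partner Cdk2 had opposite signs, and none passed. Cdk2 was above every sham array in all MCAO arrays, at 5.68 to 5.89 after sham surgery and 5.91 to 6.14 after MCAO, a change of 0.23 (SE 0.08, adjusted p = 0.163). Its other, dimmer probe set had a change of -0.08, and the mean over both gave 0.08. Ccne1, a cyclin partner of Cdk2, read 8.69 to 8.83 in the sham arrays, and its MCAO arrays ran from 8.18 over a median of 8.51 to 8.70. Its change was -0.27 (SE 0.10, adjusted p = 0.202), and Hsp72Tg MCAO 1 was the array that overlapped the sham values. Ccne2 had a change of -0.22 (SE 0.12), which was -0.08 without Hsp72Tg sham 1. E2f1, the activator that cyclin D kinases release, had a change of -0.12 (SE 0.09). No change of these 4 genes passed in limma.

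Groups without overlap were counted over all arrays, 6 after MCAO against 4 after sham surgery. Mcm3, Mcm4, Ccnd1 and Cdk2 had every MCAO array above every sham array, 4 of 37 members (10.8%), against 6.60% of all genes in either direction and 3.19% in that direction. None of the members had every MCAO array below every sham array, against 3.41% of all genes. None of the 4 was a mitosis gene.

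**Figure D3:**
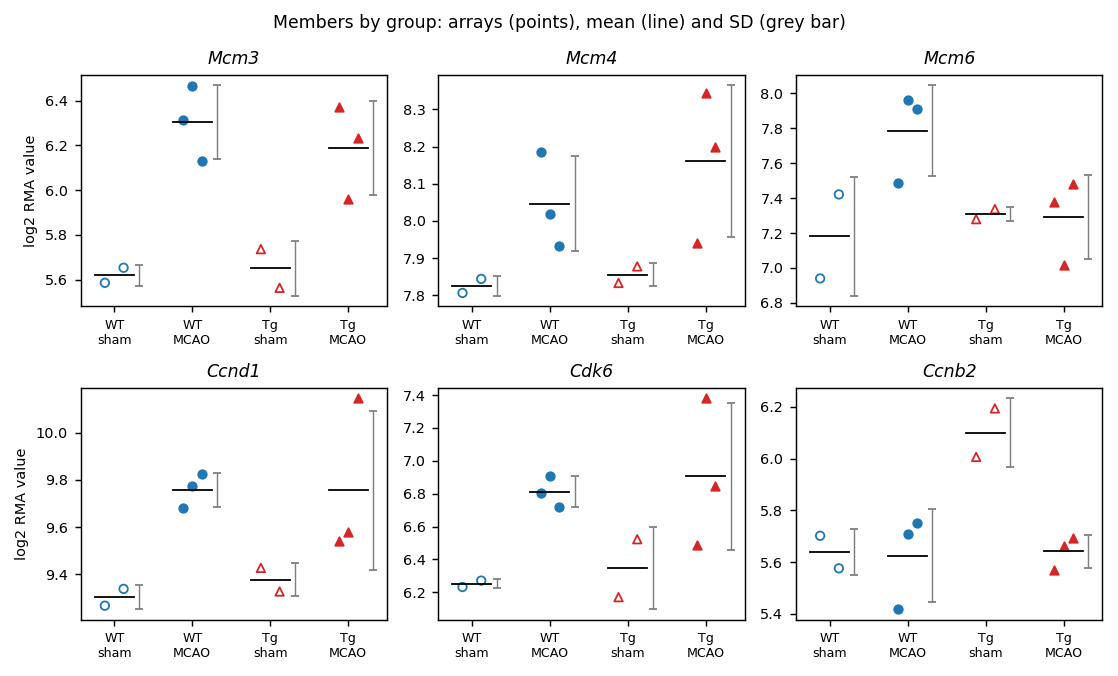
Log2 RMA values of 6 genes by group, each with its own y axis that does not start at 0, with 1 point per array, the group mean as a line and the SD as a grey bar (n = 2 sham, n = 3 MCAO). MCAO arrays of Mcm3, Mcm4 and Ccnd1 lie above all sham arrays, and 1 Hsp72Tg MCAO point of Cdk6, at 6.48, lies within the sham range (Tg on the axes is Hsp72Tg).

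The mitosis genes had a median change of 0.02, and none passed. All 14 had a mean below the median of all probe values (6.70), 4 of them below the lower quartile, and Aurkb, Birc5 and Bub1 were below it in all 10 arrays, and the part of low signal in their changes was not tested. Changes ran from -0.24 to 0.23, and 14 of 14 lay within 0.25 of 0, against 10 of 14 replication genes, 5 of 9 G1 genes and 81.5% of all genes. The 95% interval lay within a 2-fold change in either direction for 37 of 37 members and 96.6% of all genes. In limma 2 of 14 mitosis genes had an unadjusted p under 0.05, against 19.1% of all genes.

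Proliferation markers were among those with positive values. Mki67, which encodes the Ki-67 protein used to stain cycling cells, read 4.83 and 4.98 in WT sham, 4.83 and 4.85 in Hsp72Tg sham, 5.12, 5.34 and 4.80 in WT MCAO, and 4.97, 5.35 and 5.00 in Hsp72Tg MCAO. Its change of 0.22 (SE 0.12, interval -0.04 to 0.49, adjusted p = 0.327) did not pass, and 8 of 10 arrays read it below their lower quartile. Top2a, the topoisomerase that untangles chromosomes, had a change of 0.23 (SE 0.10, unadjusted p = 0.0460, adjusted p = 0.253). Its other probe sets had changes of 0.19 and 0.04.

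Cdk1, the kinase that drives entry into mitosis, had a change of -0.15 (SE 0.09) and its cyclin partners Ccna2 and Ccnb2 changes of 0.03 (SE 0.07) and -0.24 (SE 0.09). The other probe set of Ccna2, of similar brightness, had a change of -0.18 (SE 0.10), so the sign of Ccna2 differed between probe sets. The change of Cdk1 was -0.05 without Hsp72Tg sham 1 and -0.25 without Hsp72Tg sham 2. Ccnb2 read 5.70 and 5.58 in WT sham, 6.01 and 6.19 in Hsp72Tg sham, 5.42, 5.71 and 5.75 in WT MCAO, and 5.57, 5.66 and 5.69 in Hsp72Tg MCAO. The 2 Hsp72Tg sham arrays thus stood above the other 8. Its MCAO change was -0.46 in Hsp72Tg (SE 0.12, adjusted p = 0.321) and -0.01 in WT (SE 0.12), and the difference of -0.45 (SE 0.17, unadjusted p = 0.0267, adjusted p = 1) did not pass.

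No kinase or checkpoint gene of mitosis passed. The Aurora kinases Aurka and Aurkb had changes of -0.09 (SE 0.07) and 0.04 (SE 0.07). Birc5, the survivin subunit of the chromosomal passenger complex, had one of 0.03 (SE 0.08, and -0.04 without WT sham 1) and the polo kinase Plk1 one of 0.01 (SE 0.07). Prc1, which bundles the microtubules of the central spindle, had a change of -0.01 (SE 0.06). The spindle checkpoint kinases Bub1 and Bub1b had changes of 0.04 (SE 0.07) and -0.06 (SE 0.08). Cdc20, an activator of the anaphase-promoting complex, had a change of -0.02 (SE 0.12), and Ube2c, the ubiquitin-conjugating enzyme of that complex, one of 0.18 (SE 0.09). Cdc20 read 7.02 in Hsp72Tg MCAO 2 against 6.27 to 6.69 in the other 9 arrays, and without that array its change was -0.11.

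Replication and mitosis genes were set side by side on each array, as the median over a class of each gene's distance from the sham mean of its own genotype. For replication genes this median was 0.10, 0.17 and 0.08 in the 3 WT MCAO arrays and -0.0005, 0.03 and 0.17 in the 3 Hsp72Tg MCAO arrays. For mitosis genes it was 0.04, 0.01 and 0.04 in WT and 0.001, 0.03 and 0.02 in Hsp72Tg. Replication was ahead of mitosis by 0.07, 0.16 and 0.04 in WT MCAO and by 0.15 in Hsp72Tg MCAO 3, while Hsp72Tg MCAO 1 and 2 read -0.0015 and -0.0017. Sham arrays varied around their own mean by 0.02 in WT and 0.05 in Hsp72Tg on this measure. Between medians of the fitted changes the gap was 0.11 over both genotypes, 0.13 in WT (0.25 without dim genes) and 0.01 in Hsp72Tg. With 2 sham arrays in each genotype, their distances from their own mean are equal and opposite by construction. They are therefore no measure of spread against which these gaps can be judged. No p is given because the classes were chosen by hand.

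**Figure D4:**
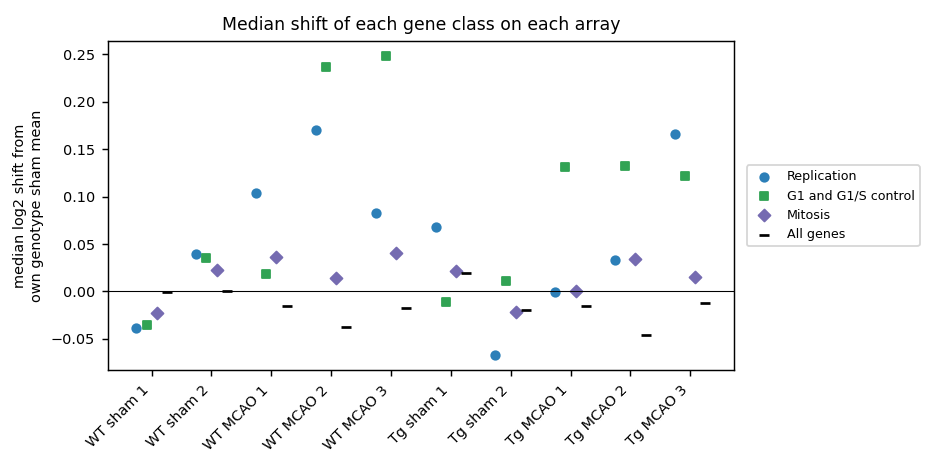
Median log2 distance from the sham mean of the same genotype (y axis) over replication (14 genes), G1 (9), mitosis (14) and all 18193 genes, for each of the 10 arrays (x axis; Tg is Hsp72Tg). Mitosis genes stay between -0.02 and 0.04 in every array, and G1 genes reach 0.25 in WT MCAO 3.

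Within each genotype no member passed. In WT, 0 of 37 passed in limma against 0.055% of all genes, and 8 had an unadjusted p under 0.05 (21.6% against 10.2%): Mcm3, Mcm6, Gins2, Ccnd1, Cdk2, Cdk6 and Ube2c with positive changes (18.9% against 5.71%) and Ccne1 with a negative one (2.70% against 4.52%). Groups did not overlap for 16 members (43.2% against 39%), 12 higher (32.4% against 16.4%) and 4 lower (10.8% against 22.5%). When the 5 WT arrays were fitted alone, Mcm3, Ccnd1 and Cdk6 passed (adjusted p = 0.0158, 0.0249 and 0.0140), among 955 genes that passed in all (5.25%), and 5 members passed with array weights, among 1358 genes (7.46%). In Hsp72Tg, 0 of 37 passed in limma against 0.022% of all genes, and 7 had an unadjusted p under 0.05 (18.9% against 12%): Mcm3, Mcm4, Fen1, Ccnd1, Ccnd3 and Cdk6 with positive changes (16.2% against 4.73%) and Ccnb2 with a negative one (2.70% against 7.29%). Groups did not overlap for 9 members (24.3% against 21.9%), 7 higher (18.9% against 9.05%) and 2 lower (5.41% against 12.8%). Cdk6 passed there without Hsp72Tg MCAO 1 (0.77, adjusted p = 0.0350). When the Hsp72Tg arrays were fitted alone, 0 members and 0 of all genes passed.

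Genotypes were compared directly, and no member passed. For the difference of the MCAO changes 0 of 37 members passed in limma against 0 of all genes, and 4 members had an unadjusted p under 0.05 (10.8% against 1.75% of all genes), namely Fen1 with a positive value (2.70% against 0.616%) and Mcm6, Ccnb2 and Aurkb with negative ones (8.11% against 1.14%). Fen1 read 10.69 and 10.73 in WT sham and 10.44 and 10.41 in Hsp72Tg sham, with 10.71, 10.49 and 10.75 after MCAO in WT and 10.56, 10.86 and 10.78 in Hsp72Tg. Its sham arrays thus did not overlap between genotypes, and the difference of its MCAO changes was 0.37 (SE 0.17). For Aurkb, which was dim in all arrays, that difference was -0.36 (SE 0.14). After MCAO 1 of 37 members had an unadjusted p under 0.05 between genotypes (Mcm6, 2.70% against 2.68%, with 1.79% of all genes lower and 0.890% higher). Genotypes did not overlap there for 5 members (13.5% against 7.44%), with Mcm5, Mcm6 and Aurkb lower in Hsp72Tg (8.11% against 4.69%) and Plk1 and Cdc20 higher (5.41% against 2.75%). After sham surgery 2 members had an unadjusted p under 0.05 (5.41% against 1.56%), Ccnb2 higher in Hsp72Tg (0.46, SE 0.13, against 0.698% of all genes) and Fen1 lower (-0.29, SE 0.13, against 0.857%). Arrays of the genotypes did not overlap for 7 members there (18.9% against 27%), 4 higher (10.8% against 12.8%) and 3 lower (8.11% against 14.2%). With limma 0 of all genes passed in either comparison.

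Other genes of the cycle were read from lists outside the 38. Among 33 measured replication genes of 36 listed, 0 passed in limma over both genotypes, with 2 higher and 4 lower at an unadjusted p under 0.05 and a median change of -0.05. Cdt1, which loads the MCM ring together with Cdc6, had the largest change at 0.88 (SE 0.34, adjusted p = 0.197), followed by the kinase Cdc7 at -0.40 (SE 0.18) and the primase subunit Prim2 at -0.39 (SE 0.12). Cdt1 read 6.70 to 6.89 in the sham arrays, 6.77 in Hsp72Tg MCAO 1 and 7.39 to 9.03 in the other 5 MCAO arrays. The median of these 33 genes thus had the opposite sign to that of the 14 replication members, 0.13, and their difference was not tested.

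Among 36 other mitosis genes 0 passed in limma, with 1 higher and 2 lower at an unadjusted p under 0.05 and a median of -0.07. The largest changes were those of the condensin subunit Smc2 (-0.50, SE 0.19), the kinetochore protein Nuf2 (-0.33, SE 0.14) and the midzone motor Kif23 (0.33, SE 0.14). Of 9 other E2F family genes 0 passed, with 0 at an unadjusted p under 0.05, and the widest change was that of E2f6 at -0.28 (SE 0.14), followed by Tfdp1 (0.13, SE 0.09) and E2f8 (-0.10, SE 0.06).

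Inhibitors of the cycle held the widest change of all these genes. Cdkn1a, which encodes the CDK inhibitor p21, read 9.49 and 8.54 in WT sham, 8.83 and 8.65 in Hsp72Tg sham, 10.96, 10.49 and 10.73 in WT MCAO, and 9.55, 12.08 and 11.07 in Hsp72Tg MCAO. All MCAO arrays were above all sham arrays, with Hsp72Tg MCAO 1 only just above WT sham 1. The change was 1.94 (3.83-fold, SE 0.41, adjusted p = 0.0551) and did not pass with all arrays. Hsp72Tg MCAO 1 was its lowest MCAO array, and whether Cdkn1a passes without that array was not read. Of the 10 CDK inhibitors and pocket proteins 0 passed in limma, 1 (Cdkn1a) had an unadjusted p under 0.05, and the median was -0.04. After Cdkn1a the widest were the pocket protein Rbl2 (-0.20, SE 0.09) and the inhibitor Cdkn1b (0.19, SE 0.13).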

How the data were processed

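Biotin-labelled total RNA was hybridised to Affymetrix arrays, 1 per sample. Per the submitters' processing notes the authors used RMA, and the deposited numbers are on a log2 scale. The sources used here give neither its version nor its settings. No scanner files or background flags were used, so the number of arrays sets the precision. Of 45101 probe sets, 64 were controls and left out, and 34945 had 1 gene symbol (932 had several). The probe set with the highest mean over 10 arrays stood for each of 18193 genes.

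limma 3.58.1 in R 4.3.3 (lmFit, contrasts.fit, eBayes) fitted a mean per group over all 10 arrays, with 6 residual and 3.72 prior degrees of freedom. The threshold was a two-sided Benjamini-Hochberg adjusted p under 0.05 over all genes. SE and 95% intervals are those of the contrast. Deviations of same-numbered arrays of different groups correlated at r of -0.156 to 0.249, over 0.1 in 2 of 13 pairs. In sham groups of 2 arrays these deviations are equal and opposite by construction, so the correlations cannot decide on pairing. The labels name no pairing, and the numbers were not taken as such. All members were named. Of each other list the 3 widest changes were named where none passed, and Cdkn1a always. Members, lists and alternatives were chosen with earlier results of these data known.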

Additional observations from a re-analysis of the deposited data

How the results depend on the processing

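Members that passed over both genotypes numbered 1, and 0 to 4 over fits that left out 1 array, where 11 to 2251 of all genes passed. The count was 0 with the replicate number as a block (Mcm3 0.64, adjusted p = 0.111; 0.104% of all genes), 3 with array weights (6.13%), 2 without WT sham 1 and Hsp72Tg MCAO 1 together (6.47%) and 0 at an adjusted p under 0.01 (0.0824%). The replicate numbers pair nothing in the labels. In WT it was 0, with 0 to 1 over fits leaving out 1 array (0 to 463 of all genes), 3 with only the WT arrays (5.25%) and 5 with array weights (7.46%). In Hsp72Tg it was 0, with 0 to 1 (0 to 1181 of all genes). The 3 genotype comparisons stayed at 0 under every alternative run. Replication minus mitosis medians were 0.060 to 0.13 over both genotypes, 0.081 to 0.19 in WT and -0.034 to 0.084 in Hsp72Tg over fits leaving out 1 array, and 0.25 in WT without dim genes. Of 2223 single-gene values 17, none passing, changed sign by over 1 SE. As means over probe sets these were Ccna2 (-0.073 over both genotypes, -0.11 in WT), Mcm2 (0.14 in WT) and Tyms (0.048 in Hsp72Tg). Without WT sham 1 and Hsp72Tg MCAO 1 they were Birc5 (-0.060 over both, -0.083 in WT) and Cdc6 (-0.11 in WT). The others arose with 1 array left out, with these ranges: Cdc6 -0.073 to 0.13 over both, in WT -0.11 to 0.18 for Cdc6, -0.24 to 0.043 for Rrm1 and -0.083 to 0.18 for Birc5, and in Hsp72Tg -0.18 to 0.23 for Cdc6, -0.19 to 0.44 for Pcna, -0.59 to 0.13 for Rrm2, -0.14 to 0.32 for Ccnd2, -0.29 to 0.084 for Cdk4 and -0.33 to 0.061 for Cdk1. The cause was not tested. Dim signal limits Cdc6, Tyms, Aurkb, Birc5 and Bub1.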
